A study of Mus musculus with 17 samples.

Results

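The Control group is described here on its own: the diaphragm of 5 tumor-free mice that received mock injections, out of 17 diaphragm samples in the series. Its members are the 5 samples whose titles give them as Control replicates 1 to 5, called mice 1 to 5 below. All were male C57BL/6J mice, 4 months old, without tumor cells, injected into the peritoneal cavity on alternate days with the vehicle, bovine serum albumin in phosphate-buffered saline. The other samples of the series received a recombinant fragment of Fibcd1, tumors of LLC cells (Lewis lung carcinoma, a mouse lung tumor line) or both, and are not used here. Each library was made from the frozen part of a diaphragm freed of its tendons, so it holds the RNA of myofibers together with that of vessels, connective tissue, linings, nerve and blood. By the study's methods the mice had free access to food. The hour of dissection is not given in the sources used here.

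The diaphragm is the main muscle of breathing and contracts without rest through life. Its myofibers are mostly fast but fatigue-resistant, with dense mitochondria, and lie between the pleural and the peritoneal lining. Motor axons of the phrenic nerve, a capillary network and fibroblasts share the tissue with them. Expression is given as TPM, the transcripts of a gene per 1000000 transcripts, a unit in which the reads of a gene are divided by its length and every library is scaled to that total. TPM values of different genes can therefore be compared within a mouse, but each value is a share of the total.

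The libraries were alike in depth and in the number of genes they held. The spacing of the lowest values put each library at 50700000 to 53000000 counted reads, and 3 reads in a gene of 1000 bases corresponded to 0.119 to 0.126 TPM. Of 47643 gene symbols, 26439 were at 0 in all 5 mice and 16739 were above 0 in all 5. A mean of at least 1 TPM was reached by 12353 genes, at least 10 TPM by 5499, at least 100 TPM by 739 and at least 1000 TPM by 69. At least 1 TPM was seen for 12399, 12473, 12160, 12306 and 11798 genes in mice 1 to 5.

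The diaphragm transcriptome was led by mitochondrially encoded mRNA. The 13 protein genes of the mitochondrial genome held 47.1% ± 1.09 of all TPM (SD, n = 5), with a range of 45.9% to 48.4% over the mice. All values below written with ± are means with the SD over the same 5 mice. mt-Co1, the catalytic subunit of cytochrome c oxidase, was the most abundant transcript of the tissue at 93588 ± 3397 TPM. mt-Co2 followed at 62670.1 ± 923 TPM and mt-Co3, the other large subunit of that enzyme, at 61398 ± 814 TPM. Together the cytochrome c oxidase subunits made up 46.2% ± 0.382 of mitochondrially encoded TPM, the subunits of complex I 28.2% ± 0.479, the subunits of ATP synthase 17.9% ± 0.368 and cytochrome b 7.71% ± 0.108. The lowest was mt-Nd6, the only one of these genes on the light strand, at 632 ± 101 TPM, and every other one ranked above the 16th place that Tnnc2 held among all genes. The other 24 mitochondrial symbols, among them the ribosomal RNAs mt-Rnr1 and mt-Rnr2, are listed at 0 in all 5 mice.

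Among nuclear genes the contractile apparatus, oxygen storage and the creatine kinase system came first. Acta1, skeletal muscle alpha-actin, was the most abundant nuclear transcript, at 22896, 21842, 23769, 23855 and 21869 TPM in mice 1 to 5, a mean of 22846 ± 979. Tnnt3, the fast skeletal troponin T that ties troponin to tropomyosin, reached 12407 ± 295 TPM, and Mb, the oxygen-binding protein myoglobin, 12282 ± 308 TPM. Tnnc2, the calcium sensor of fast fibers, was 4th among nuclear genes, at 10179 ± 311 TPM. Atp2a1, the calcium pump of fast fibers, followed at 6438 ± 282 TPM, Tcap, the titin cap of the Z-disc, at 5945 ± 203, and Ckm, muscle creatine kinase, at 5400.4 ± 208. None of these genes differed between mice by more than a small fraction of its level, with coefficients of variation (CV, the SD as a percent of the mean) from 2.38% for Tnnt3 to 4.38% for Atp2a1. Fabp3, a carrier of fatty acids in oxidative muscle, ranked 10th among nuclear genes at 4839.9 ± 408 TPM, above every enzyme of glycolysis.

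A small set of genes carried much of the message pool. The 10 most abundant genes, 9 of them mitochondrial and the other Acta1, held 44.6% ± 0.922 of TPM. Of nuclear TPM, 24 genes made up 25%, 205 genes 50%, 1203 genes 75% and 10228 genes 99%. Of the 40 nuclear genes with the highest means, 36 to 38 were also in the top 40 of each single mouse. The widest ranges among the 40 belonged to transcripts of blood cells. Hbb-bs, Hba-a2 and Hba-a1, the adult globins, ranked 12th, 16th and 23rd by their means. Igkc, the constant region of the kappa light chain, ranked 38th, but without mouse 2 its mean fell from 1324 to 585 TPM. Pvalb, the calcium buffer parvalbumin and 32nd by its mean, also left the top 40 in mouse 4. Counts of list members that were highest or lowest in a given mouse are to be read against the same shares over all 5499 genes with a mean of at least 10 TPM: mice 1 to 5 were highest for 13.6%, 32.2%, 16.4%, 17.1% and 20.6% of them and lowest for 15.8%, 18.1%, 14.6%, 29.3% and 22.3%.

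**Figure D1:**
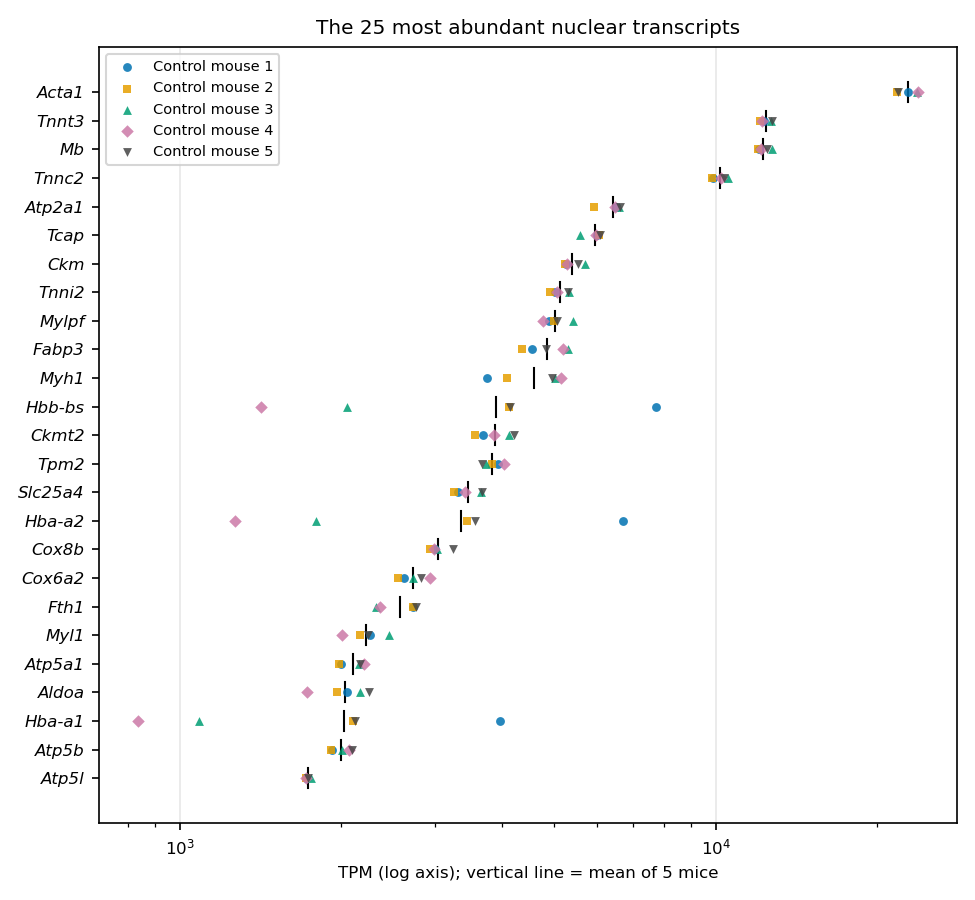
TPM of the 25 most abundant nuclear genes (horizontal axis, log scale) in each of the 5 Control mice, 1 symbol per mouse, with the mean as a vertical line. The points of most genes lie close together, while those of Hbb-bs (1417 to 7754 TPM), Hba-a2 and Hba-a1 are spread widely, with mouse 4 lowest and mouse 1 highest.

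The pan-sarcomere list, kept apart from the fast and slow fiber lists and including Mb and Ckm, had nearly the same summed level in every mouse. The 28 genes of that list summed to 59871 ± 1341 TPM, or 11.3% of nuclear TPM, with a CV of 2.24%. Below Acta1, Mb, Tcap and Ckm stood Tpm2 at 3832 ± 145 TPM and Tpm1 at 1442 ± 25.1 TPM, the tropomyosins that cover the myosin sites on actin, and Des, the desmin of intermediate filaments, at 1223 ± 44.8 TPM. The giant proteins were much lower per unit length: Neb, nebulin of the thin filament, reached 198 ± 34.9 TPM and Ttn, titin, which spans the sarcomere from Z-disc to M-line, 116 ± 15.0 TPM. The lowest of the list was Csrp3, the muscle LIM protein, at 45.4 ± 6.12 TPM. No member differed by 2-fold between mice.

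Fast isoforms exceeded their slow counterparts in each family measured. The 13 fast fiber genes summed to 51377 ± 1689 TPM and the 11 slow fiber genes to 2849.9 ± 203 TPM. Tnnt3 made up 97.1% ± 0.283 of Tnnt3 plus Tnnt1, its slow counterpart. Tnni2, the inhibitory subunit of fast troponin, made up 98.5% ± 0.207 of its pair with Tnni1, and Tnnc2 96.4% ± 0.443 of its pair with Tnnc1. The fast share was 92.9% ± 0.424 for the calcium pumps (Atp2a1 against Atp2a2), 91.2% ± 0.849 for the regulatory light chains (Mylpf against Myl2) and 86.9% ± 1.39 for the essential light chains (Myl1 against Myl3). Calsequestrin, the calcium store protein, was the least fast-biased pair, with Casq1 at 80.0% ± 2.14 of Casq1 plus Casq2.

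The myosin heavy chains, which set the speed of a fiber, were led by the type IIx isoform. Myh1, the IIx gene, was at 3744, 4088, 5009, 5154 and 4954 TPM in mice 1 to 5. Myh2, the IIa gene, was at 1685, 1383, 1436, 1805 and 1406 TPM, and the slow type I gene Myh7 at 371, 313, 336, 329 and 282 TPM. Myh4, the gene of the fastest type IIb fibers, was at 1582, 855, 978, 246 and 864 TPM, so that mouse 1 and mouse 4 stood on either side of the other 3. As a share of the 4 adult genes, Myh1 held 62.3% ± 6.90, Myh2 21.0% ± 2.42, Myh4 12.3% ± 6.44 and Myh7 4.44% ± 0.473. The Myh4 share ran from 3.27% in mouse 4 to 21.4% in mouse 1, while that of Myh1 ran from 50.7% in mouse 1 to 68.4% in mouse 4. TPM shares weigh messages and not fibers: fewer fibers of a type and less message per fiber cannot be told apart in RNA of whole tissue, here or in any cell type below.

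Other genes typical of IIb fibers had the same lowest mouse as Myh4. Actn3, the alpha-actinin of fast fibers, was at 375, 256, 265, 142 and 238 TPM, and Pvalb at 1969, 1667, 1559.6, 1009 and 1363 TPM. Both were highest in mouse 1 and lowest in mouse 4, the mice that were highest and lowest for Myh4. Mybpc2, the fast myosin-binding protein C, was at 458, 401, 516, 299 and 480.1 TPM, again lowest in mouse 4 but highest in mouse 3. Mylpf and Myl1 were lowest in mouse 4 as well, by smaller margins, with CVs of 4.97% and 7.41%. Tnnt3, Tnnc2 and Tnni2 did not follow this order, and mouse 4 lay between the others for each of them. Mouse 4 held the highest Myh2 and Myh1 of the group.

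**Figure D2:**
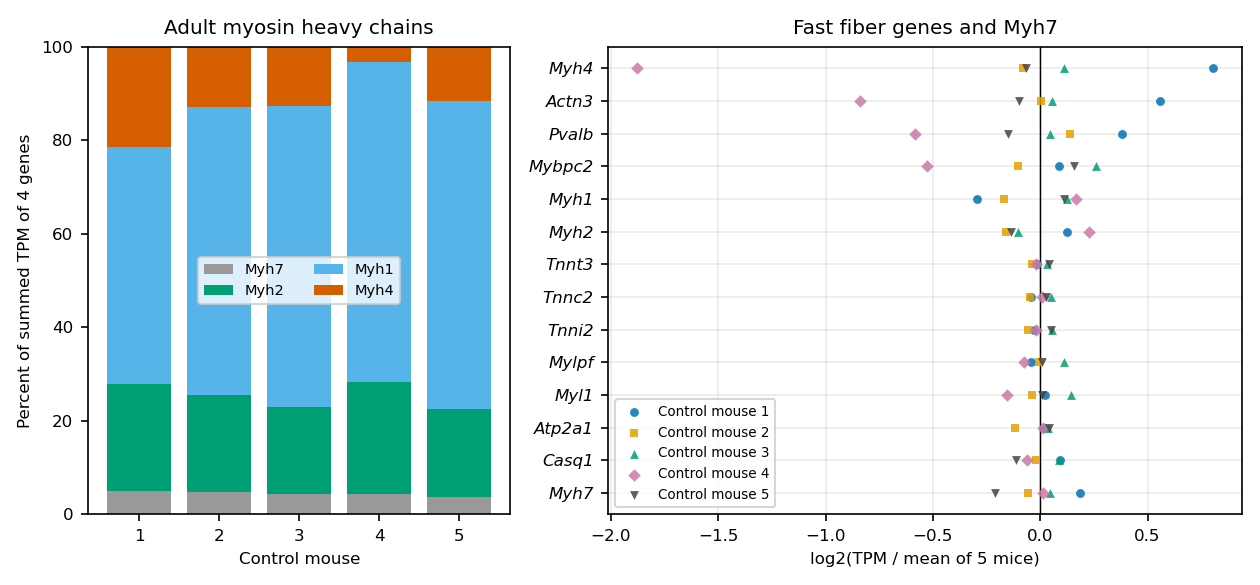
Left, share of each adult myosin heavy chain in their summed TPM (percent, vertical axis) in Control mice 1 to 5. Right, log2 of TPM relative to the mean of the 5 mice for the fast fiber genes and Myh7, 1 symbol per mouse. Myh4 takes 21.4% in mouse 1 and 3.27% in mouse 4, and mouse 4 is also the lowest point for Actn3, Pvalb and Mybpc2.

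Developmental and cardiac sarcomere genes were low, apart from cardiac actin, and 4 of 14 reached a mean of 1 TPM. Ankrd1, a stretch-responsive ankyrin repeat protein, was at 6.78 ± 1.64 TPM, and Tnnt2, cardiac troponin T, at 1.28 ± 0.620 TPM. Myh3 and Myh8, the embryonic and neonatal heavy chains, averaged 0.0428 and 0.142 TPM, and Myh6, the alpha heavy chain of heart, 0.385 TPM. Tnni3, cardiac troponin I, averaged 0.638 TPM. Actc1, cardiac alpha-actin, was at 209, 205, 455, 289.7 and 356 TPM, which placed it 267th among nuclear genes. Mice 3 and 5 were highest and mice 1 and 2 lowest. Acta1 made up 98.7% ± 0.428 of the pair. The coding sequences of Acta1 and Actc1, read from GENCODE transcripts, were 86.2% identical over 1134 bases, and those of Myh1 and Myh4 90.2% identical over 5820 bases. How reads from the most similar stretches were assigned was not tested.

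The promoters of these actin and myosin genes are shown because the genes differ so widely in level and in spread between mice. Each stretch is the 250 bases before the start site given by RefSeq on GRCm38.p6, written 5′ to 3′ along the gene. Capitals mark the CArG box, a motif read by serum response factor, the MEF2 motif, read by factors of the MEF2 family, and the letters TATAAA, all searched on both strands.
Acta1, chr8:123894776-123895025, minus strand: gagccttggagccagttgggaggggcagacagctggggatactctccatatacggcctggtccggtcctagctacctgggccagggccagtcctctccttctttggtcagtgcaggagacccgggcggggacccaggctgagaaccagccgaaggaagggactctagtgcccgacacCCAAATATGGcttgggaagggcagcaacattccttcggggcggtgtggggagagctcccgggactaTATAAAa
Actc1, chr2:114052876-114053125, minus strand: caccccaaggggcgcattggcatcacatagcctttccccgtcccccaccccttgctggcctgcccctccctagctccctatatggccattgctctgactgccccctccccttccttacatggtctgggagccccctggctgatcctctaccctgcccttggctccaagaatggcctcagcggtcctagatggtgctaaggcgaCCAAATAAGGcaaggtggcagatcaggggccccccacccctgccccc
Myh1, chr11:67199852-67200101, plus strand: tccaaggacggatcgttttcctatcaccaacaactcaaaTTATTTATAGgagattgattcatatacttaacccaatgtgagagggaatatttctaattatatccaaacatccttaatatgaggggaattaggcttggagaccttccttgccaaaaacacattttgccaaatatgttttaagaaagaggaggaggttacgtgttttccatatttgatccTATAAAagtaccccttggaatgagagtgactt
Myh4, chr11:67237562-67237811, plus strand: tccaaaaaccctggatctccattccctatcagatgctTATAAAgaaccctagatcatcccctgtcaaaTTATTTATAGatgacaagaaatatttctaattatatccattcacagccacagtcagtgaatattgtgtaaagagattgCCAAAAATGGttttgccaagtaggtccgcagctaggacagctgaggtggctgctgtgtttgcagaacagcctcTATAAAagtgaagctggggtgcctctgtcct

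Acta1, Actc1 and Myh4 each held a CArG box in this window, at bases -73 to -64, -47 to -38 and -104 to -95 from the start site. Myh1 and Myh4 each held a MEF2 motif, at -211 to -202 and -182 to -173, and in both this stretch also contained TATAAA on the minus strand. TATAAA lay at -7 to -2 in Acta1, at -32 to -27 in Myh1 and at -31 to -26 in Myh4, which held another copy at -213 to -208. Of 32851 promoters in the same table, 1.47% held a CArG box, 2.92% a MEF2 motif and 12.4% TATAAA. These matches describe letters in a window and say nothing about binding.

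The muscle regulators themselves were expressed at moderate levels. Mef2d and Mef2c, the more abundant of the MEF2 genes, were at 77.7 ± 2.41 and 76.1 ± 9.02 TPM, and Srf, serum response factor, at 33.0 ± 1.55 TPM. Esrra, a nuclear receptor that drives mitochondrial genes, led the list of regulators at 137 ± 11.0 TPM, followed by Tbx15, a T-box factor of fast muscle, at 103 ± 8.11 TPM. Ppargc1a, the mitochondrial coactivator, was among the most uneven of them, at 14.8, 39.2, 33.6, 16.1 and 62.1 TPM in mice 1 to 5. Mouse 5 was highest for it, and also for Ppara, a receptor for fatty acids, at 41.4 TPM against 20.6 to 26.5 TPM in the other 4.

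Genes of excitation and calcium release were steady between mice. Sln, sarcolipin, a small inhibitor of the calcium pump, was the highest of the 19 genes at 918 ± 94.3 TPM, whereas Pln, phospholamban, its cardiac relative, was the lowest at 3.05 ± 0.312 TPM. Hrc, the histidine-rich calcium-binding protein, reached 592 ± 42.8 TPM. Ryr1, the release channel of the sarcoplasmic reticulum, was at 277 ± 14.0 TPM and Cacna1s, its voltage sensor, at 237 ± 9.79 TPM. No gene of this list differed by 2-fold between mice, and of the 17 genes of the membrane and dystrophin list Sgcd, a low sarcoglycan gene, did, at 2.50 TPM in mouse 2 and 5.15 TPM in mouse 4. In the latter list, Sgca, which encodes a sarcoglycan, was at 110.5 ± 3.82 TPM. Dmd, dystrophin, a very long transcript, was at 6.93 ± 1.32 TPM and Utrn, its homolog utrophin, at 9.60 ± 0.759 TPM.

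Among the lists of nuclear genes, the nuclear respiratory chain had the largest sum after the pan-sarcomere and fast fiber lists. The 29 nuclear genes of the respiratory chain and ATP export summed to 32949 ± 1110.1 TPM, or 6.23% of nuclear TPM. Ckmt2, mitochondrial creatine kinase, led at 3881 ± 278 TPM, ahead of Slc25a4, the carrier that exchanges ADP for ATP, at 3455 ± 194 TPM. Cox8b and Cox6a2, the muscle forms of cytochrome c oxidase subunits, were at 3034 ± 114 and 2729 ± 151 TPM, while their counterparts in other tissues, Cox8a and Cox6a1, were at 243 ± 59.6 and 128 ± 30.9 TPM. Cox8a was at 309, 302, 197, 181 and 224 TPM in mice 1 to 5, so mice 1 and 2 lay above the other 3, as they did for Cox6a1.

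Enzymes of glycolysis, fatty acid use and the citrate cycle were of similar summed abundance. The 19 glycolysis and glycogen genes summed to 14037 ± 772 TPM, the 21 fatty acid genes to 12269.8 ± 905 TPM and the 21 citrate cycle genes to 10768 ± 488 TPM. Aldoa, aldolase, was the highest glycolytic gene at 2036 ± 205 TPM, followed by Eno3, muscle enolase, at 1582 ± 151 and Pgam2, muscle phosphoglycerate mutase, at 1548 ± 139. All 3 were lowest in mouse 4, at 1728, 1378 and 1403 TPM. The sum of the glycolysis and glycogen list was lowest in mouse 2, at 13326 TPM, with mouse 4 next at 13344 TPM. Ldhb, the lactate dehydrogenase subunit of oxidative tissue, was at 1504 ± 139 TPM and Ldha, its glycolytic counterpart, at 436 ± 29.2 TPM. Ldhb was highest in mouse 4, at 1717 TPM, and Ldha was lowest there, at 388 TPM.

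Mouse 4 was also the highest for most genes of fatty acid oxidation, by a small margin. Of the 21 members, 15 were highest in mouse 4 and 16 were lowest in mouse 2, and these counts were 17 and 20 when mitochondrially encoded genes were left out of the total. Acaa2, the thiolase of beta-oxidation, was at 635, 633, 626, 719 and 635 TPM. Idh2, an isocitrate dehydrogenase of mitochondria that belongs to the citrate cycle list, was at 949.9, 862, 829.8, 1148 and 907 TPM. Lpl, the lipase that frees fatty acids from blood lipids, was at 910.1 ± 60.1 TPM. Among members of the fatty acid list at 10 TPM or more, only Pdk4 and Ucp3 differed by over 2-fold. Pdk4 is the kinase that shuts off pyruvate oxidation in fasting, and Ucp3 is an uncoupling protein. Pdk4 was at 394, 272, 810.1, 589.8 and 388 TPM, with mouse 3 highest and mouse 2 lowest, and Ucp3 had the same order at its ends, 93.4 TPM in mouse 3 and 34.9 TPM in mouse 2.

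Cells of blood vessels gave low but even signals. Endothelial genes summed to 914 ± 33.0 TPM over 16 members, with a CV of 3.61%. Aqp1, a water channel, was the highest at 399.9 ± 22.0 TPM, and the junction genes Cdh5 and Pecam1 were at 58.4 ± 3.34 and 52.0 ± 3.77 TPM. Cldn5, a tight junction claudin, was the exception, at 33.1, 15.2, 25.1, 22.6 and 20.8 TPM. Smooth muscle and pericyte genes summed to 483 ± 8.30 TPM over 12 members, the smallest CV of all lists at 1.72%, although single members varied more. Rgs5, a pericyte gene, supplied 188 ± 12.3 TPM of it, and Acta2, smooth muscle actin, 56.1 ± 8.67 TPM. Cnn1, a calponin of contractile smooth muscle, was at 6.49 TPM in mouse 1 and 1.22 to 1.87 TPM in the other 4.

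Fibroblast, lymphatic and tendon genes shared mouse 1 as the lowest. The 16 fibroblast genes summed to 2067 ± 202 TPM, led by Gsn, the actin-severing gelsolin, at 840.5 ± 85.7 TPM and Dcn, the collagen-binding decorin, at 556 ± 79.1 TPM. Col1a1, a chain of type I collagen, was at 45.4, 57.0, 76.6, 59.9 and 70.4 TPM, with mouse 1 lowest and mouse 3 highest. Of the 16 genes, 10 were lowest in mouse 1. The 7 lymphatic genes summed to 306 ± 33.0 TPM, of which Ccl21a, a chemokine of lymphatic vessels, gave 218 ± 18.8 TPM, and without it the sum was 88.1 ± 15.4 TPM. Lyve1, a hyaluronan receptor of lymphatics, was at 38.2 ± 8.37 TPM and Prox1, the factor that defines lymphatic endothelium, at 2.68 ± 0.461 TPM.

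Tendon genes were low, in tissue from which tendons had been removed, and uneven. The 10 genes summed to 83.4, 132, 152, 126 and 172 TPM in mice 1 to 5, a range of 2.07-fold, and 7 of the 8 members at 1 TPM or more were lowest in mouse 1. Fmod, fibromodulin of tendon collagen, was at 17.3, 41.3, 45.2, 32.8 and 51.9 TPM. Thbs4, thrombospondin of tendon and muscle attachments, was at 63.1 ± 12.1 TPM, and Tnmd, tenomodulin, at 6.36 ± 2.17 TPM. The exception was Scx, the tendon transcription factor, highest in mouse 1 at 8.44 TPM.

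Nerve, endplate and satellite cell genes were detected at low levels. The 11 Schwann cell genes summed to 114 ± 9.09 TPM, led by Pmp22, a protein of peripheral myelin, at 52.4 ± 1.47 TPM. The 12 genes of the neuromuscular junction summed to 117 ± 5.61 TPM. Rapsn, which clusters acetylcholine receptors, was at 26.2 ± 1.25 TPM. Chrne, the receptor subunit of adult endplates, was at 7.73 ± 0.744 TPM, whereas Chrng, the fetal subunit that returns after denervation, averaged 0.0832 TPM. Among the 9 satellite cell and myoblast genes Myod1, a myogenic factor, was highest at 13.0 ± 1.59 TPM, and Pax7, the defining factor of satellite cells, was at 1.68 ± 0.395 TPM. Proliferation genes were lower still: the 12 summed to 8.32 ± 2.78 TPM, and Mki67 averaged 0.882 TPM.

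**Figure D3:**
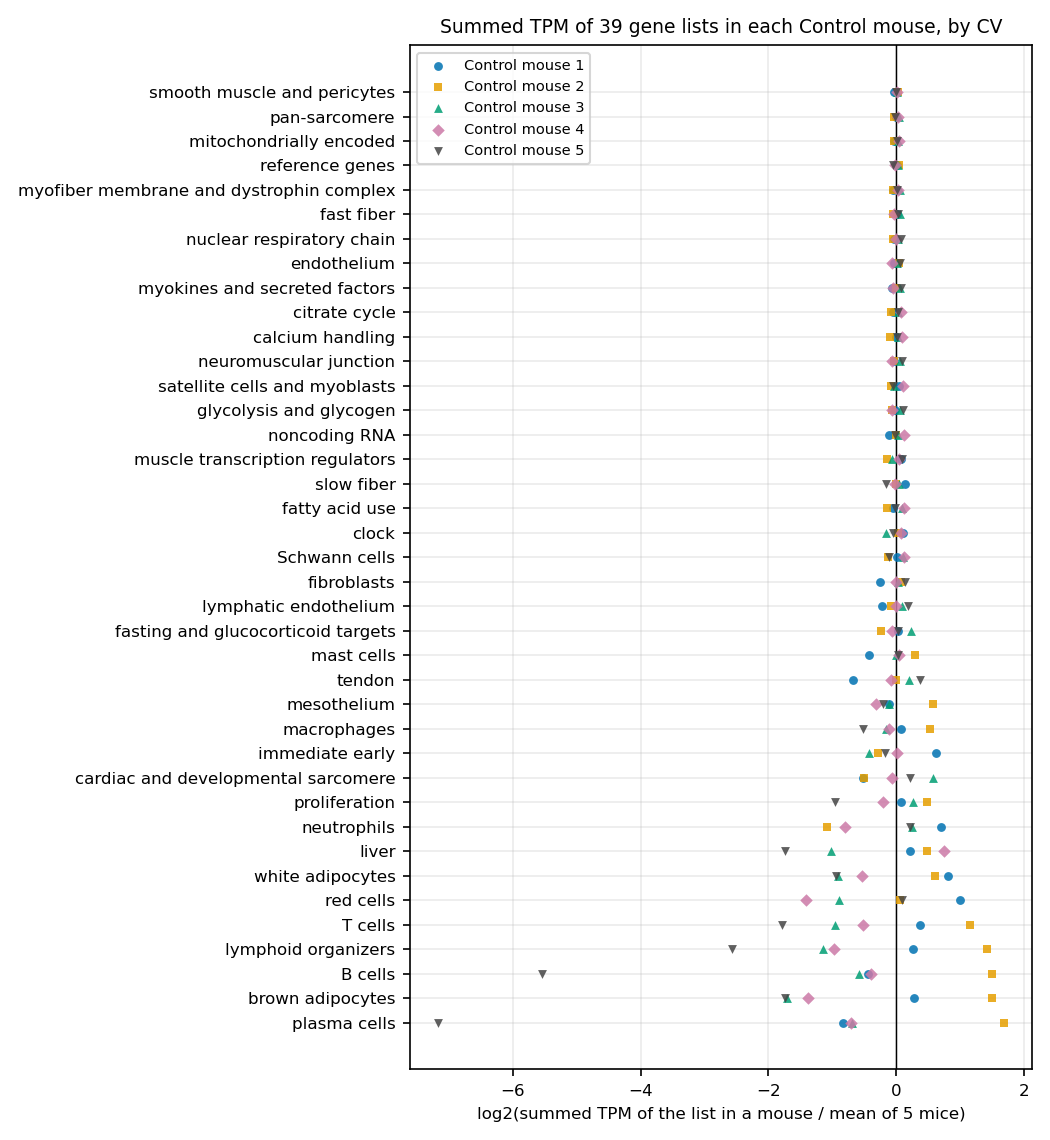
Log2 of the summed TPM of each gene list in a mouse relative to the mean of the 5 mice (horizontal axis), 1 symbol per Control mouse, with lists ordered from the smallest CV at the top to the largest at the bottom. Smooth muscle, pan-sarcomere and respiratory chain lists stay near 0, and the lists at the bottom spread widely, down to mouse 5 for plasma cells (10.1 TPM against 813 to 4619 TPM in the other mice).

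The compartments that differed most between mice were fat, lymphocytes, red cells and transcripts typical of liver. White adipocyte genes summed to 4019, 3525, 1220.0, 1588 and 1194 TPM, so that mice 1 and 2 stood above the other 3 by more than 2-fold. All 12 members were highest in mouse 1, or 11 of 12 under either of the other scalings tried, and 9 were lowest in mouse 5. Adipoq, the hormone adiponectin, was at 175, 145, 27.6, 50.1 and 26.4 TPM. Cfd, the protease adipsin, was at 1346, 1266, 251, 309 and 249 TPM, and Lep, leptin, at 6.70, 5.21, 0.735, 2.31 and 0.457 TPM. In each of the 3 mouse 1 was highest, followed by mice 2, 4, 3 and 5. Plin4, a lipid droplet protein that muscle also expresses, was the only one of the 10 members at 10 TPM or more that did not differ by 2-fold, at 161 to 194 TPM.

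The main transcripts of thermogenic fat were highest in the same mice, with their order reversed. Ucp1, the uncoupling protein of brown and beige adipocytes, was at 16.5 and 62.3 TPM in mice 1 and 2 and listed at 0 in mice 3, 4 and 5. Cidea, a lipid droplet protein of brown fat, was at 34.3 and 57.5 TPM in mice 1 and 2 and at 11.3 to 12.7 TPM in the other 3. The other member of the list at 1 TPM or more went another way: Slc27a2, a fatty acid transporter also made by liver, was at 0.816, 1.70, 0.512, 3.29 and 0.0772 TPM, highest in mouse 4. Elovl3, a fatty acid elongase also made by liver, stayed below 1 TPM in every mouse and was highest in mouse 4 too.

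B cell and immunoglobulin transcripts differed widely, with mouse 2 high and mouse 5 nearly without them. Ighm, the constant region of immunoglobulin M, was at 449.9, 1976, 469.7, 527 and 13.0 TPM in mice 1 to 5. Cd79a, a signaling chain of the B cell receptor, was at 28.7, 36.8, 7.51, 10.4 and 0.199 TPM. All 10 B cell genes at 1 TPM or more were lowest in mouse 5. Without Ighm and Ighd the list summed to 85.8, 109, 23.4, 32.7 and 2.68 TPM, so mouse 1 then lay near mouse 2. Ms4a1, a B cell membrane protein, stood at 1035 reads in mouse 1 and 2 reads in mouse 5.

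The plasma cell list, for antibody-secreting cells, gave the widest range of all lists, 458-fold from 10.1 to 4619 TPM, and most of its mean sum was Igkc, which B cells express as well. Without Igkc, a choice made after seeing the data, the sums were 85.2, 336, 91.9, 80.5 and 5.34 TPM, a range of 62.8-fold. The B cell list ranged 131-fold, or 40.6-fold without Ighm and Ighd, a choice of the same kind. Igkc was at 728, 4283, 801, 804 and 4.75 TPM, and Jchain, which joins IgM and IgA into polymers, at 41.9, 237, 44.4, 45.9 and 0.460 TPM. Summed over all annotated immunoglobulin genes, the level was 2636, 12079, 2559, 2857 and 30.8 TPM. These genes held more TPM than the slow fiber list in mouse 2 and, by a small margin (2857 against 2812 TPM), in mouse 4. Variable segments differed in identity as well as in level: Igkv4-55, a kappa variable segment, was at 1804 TPM in mouse 2 and 0 in mouse 5, Igkv4-59 was highest in mouse 3 at 316 TPM, and Igkv9-124 reached 82.7 TPM in mouse 4 and 1.13 TPM at most in the others. Reads of such related segments can be shared between them, and their assignment was not tested.

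Of the 3 lymphoid organizer genes at 1 TPM or more, all were highest in mouse 2 and 2 were lowest in mouse 5. Cxcl13, the chemokine that draws B cells into follicles, was at 32.7, 85.2, 13.9, 15.1 and 0.864 TPM, and Ltb, lymphotoxin beta, at 8.92, 12.6, 1.63, 3.01 and 0.601 TPM. Ccl19, a chemokine that draws T cells and dendritic cells, was at 4.73, 5.76, 2.02, 1.80 and 5.20 TPM, lowest in mouse 4 and next to highest in mouse 5. Madcam1, an addressin of mucosal vessels, stayed below 0.03 TPM. T cell genes summed to 11.8 ± 9.12 TPM over 11 members, and all 5 at 1 TPM or more were highest in mouse 2 and lowest in mouse 5. Cd3g, a chain of the T cell receptor complex, was at 2.01, 3.19, 0.898, 1.16 and 0.387 TPM.

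Myeloid cells were present in every mouse. Macrophage genes summed to 556, 768, 475, 488 and 369 TPM, a 2.08-fold range, with 9 of 12 members highest in mouse 2 and 10 lowest in mouse 5. Lyz2, lysozyme, was at 288 ± 86.6 TPM and C1qa, a chain of complement C1q, at 61.0 ± 16.9 TPM. Adgre1, the F4/80 antigen, was more even at 4.62 ± 0.509 TPM. Mast cell genes summed to 43.3 ± 7.32 TPM, led by the mast cell protease Mcpt4 at 12.5 ± 2.18 TPM. Neutrophil genes summed to 10.7 ± 5.09 TPM, and Ly6g, a neutrophil surface antigen, was listed at 0 in 4 mice and rested on 1 read in mouse 1.

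Globin and other red cell mRNA differed 5.28-fold in sum. The 8 red cell genes summed to 20321, 10670.0, 5475, 3849.7 and 10889.6 TPM, and the 6 at 1 TPM or more were all highest in mouse 1 and all lowest in mouse 4. Hbb-bs, adult beta-globin, was at 7754, 4114, 2052, 1417 and 4134 TPM. Alas2, a heme synthesis enzyme of erythroid cells, was at 60.2, 31.6, 18.9, 11.6 and 34.9 TPM, the same order of mice. The ratio of Hba-a2 to Hba-a1 stayed at 1.51 to 1.69 across this range. Their coding sequences differ at 1 of 429 bases, and how reads were assigned between them was not tested. The order of the mice for red cells was not that for B cells: mouse 5 had the second highest red cell sum and the lowest B cell sum.

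Transcripts typical of liver followed a pair of patterns. Alb, albumin, was at 0.221, 1.44, 32.0, 171 and 9.46 TPM in mice 1 to 5, which stood for 13 reads in mouse 1 and 9980 in mouse 4. Apoa2, an apolipoprotein of high-density lipoprotein, was at 0.445, 0.591, 16.4, 147 and 4.86 TPM, and Fgb, a chain of fibrinogen, at 0.0104, 0.0208, 1.81, 6.11 and 0.402 TPM. In all 10 members other than Cyp2e1 and Hp, mouse 4 was highest, and in all 10 mouse 1 was lowest. The 10 summed to 1.37, 4.44, 88.0, 524 and 25.6 TPM. Cyp2e1, a cytochrome P450, and Hp, haptoglobin, which fat cells also express, had another order: Cyp2e1 was at 279.9, 289.9, 63.8, 88.4 and 58.8 TPM, with mice 1 and 2 high as for the adipocyte genes. The source of these transcripts was not tested.

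The serosal lining was recorded in every library. Upk3b, a uroplakin of mesothelium, was at 23.9, 66.2, 31.8, 31.7 and 26.9 TPM, and Msln, mesothelin, at 15.9, 39.5, 26.0, 25.8 and 27.4 TPM, both highest in mouse 2. The mesothelial list summed to 139.7 ± 38.2 TPM, and 7 of its 11 members at 1 TPM or more were highest in mouse 2, which was highest for 32.2% of all 5499 genes. Of the others, 3 were highest in mouse 1. These were the keratins Krt19, Krt8 and Krt18, epithelial intermediate filaments, at 31.2, 15.6 and 12.9 TPM there. All 6 mesothelial genes with a mean of at least 10 TPM differed by 2-fold or more between mice.

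Most genes of the circadian clock were lowest in mouse 3. The clock is a feedback loop in which Arntl and Clock drive Per and Cry genes, which then repress them. Arntl was at 2.73, 2.06, 5.72, 3.40 and 1.77 TPM in mice 1 to 5, and Nr1d1, a receptor of the loop that represses Arntl, at 86.5, 69.3, 146, 131 and 57.1 TPM. Both were highest in mouse 3, next highest in mouse 4 and lowest in mouse 5. Per2 was at 15.9, 20.2, 6.48, 9.33 and 23.0 TPM, the opposite order at both ends. Per1 was at 58.5, 33.5, 16.5, 31.9 and 37.2 TPM and Ciart, a repressor within the loop, at 19.7, 14.8, 5.86, 10.8 and 13.6 TPM, again lowest in mouse 3. Of 16 clock genes at 1 TPM or more, 11 were lowest in mouse 3, which was lowest for 14.6% of all 5499 genes, and the count was the same under both other scalings tried. The highest mouse was not shared: 2, 6, 3, 2 and 3 of the 16 were highest in mice 1 to 5. The ratio of Nr1d1 to Per2 ran from 2.48 in mouse 5 to 22.5 in mouse 3.

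**Figure D4:**
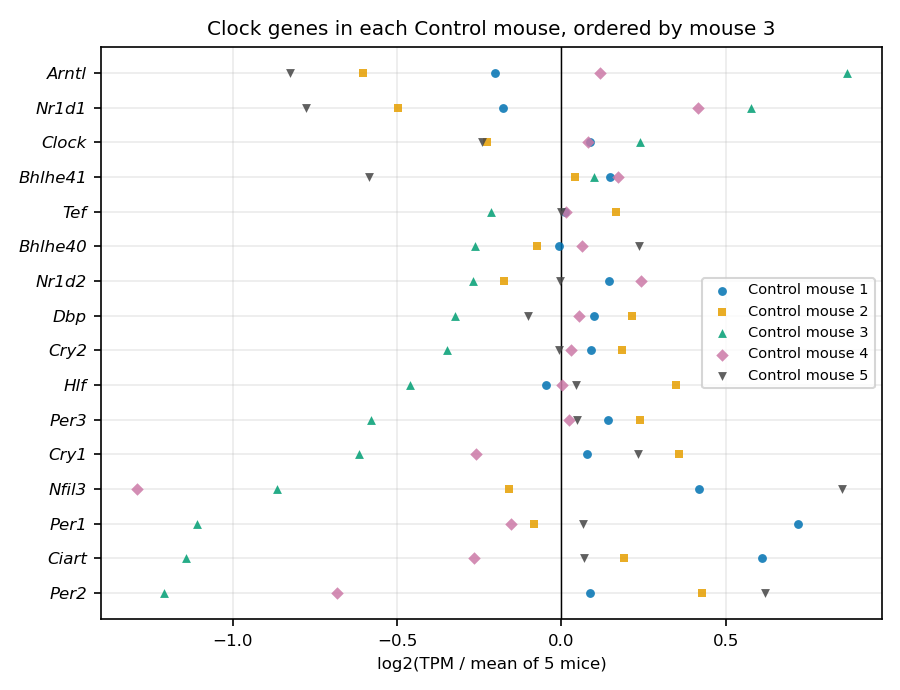
Log2 of TPM relative to the mean of the 5 mice (horizontal axis) for 16 clock genes with a mean of at least 1 TPM, ordered by their level in mouse 3, 1 symbol per Control mouse. Mouse 3 is the highest point for Arntl (5.72 TPM) and Nr1d1 and the lowest for Per2 (6.48 TPM), Per1, Ciart and Cry1.

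The promoters of Per1 and Ciart are shown because these genes, lowest in mouse 3, hold the E-box CACGTG that CLOCK and its partner read. The window, build and source are those of the actin and myosin promoters, and capitals mark CACGTG, which reads the same on both strands.
Per1, chr11:69098699-69098948, plus strand: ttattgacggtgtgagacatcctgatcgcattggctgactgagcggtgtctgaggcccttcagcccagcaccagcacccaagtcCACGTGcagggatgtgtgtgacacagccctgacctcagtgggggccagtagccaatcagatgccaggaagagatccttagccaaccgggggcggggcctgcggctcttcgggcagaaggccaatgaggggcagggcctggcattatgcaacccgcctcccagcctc
Ciart, chr3:95882229-95882478, minus strand: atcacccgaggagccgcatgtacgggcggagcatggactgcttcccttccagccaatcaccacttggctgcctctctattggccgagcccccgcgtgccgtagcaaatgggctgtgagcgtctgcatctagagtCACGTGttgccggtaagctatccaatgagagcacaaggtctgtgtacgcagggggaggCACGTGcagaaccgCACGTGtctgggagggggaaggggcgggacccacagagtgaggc

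Per1, for which the table lists more than 1 start site and the one with the motif is shown, held CACGTG at -166 to -161, and Ciart held it at -116 to -111, -58 to -53 and -44 to -39. Of 15 clock genes with a promoter in the table, 5 held the motif in at least 1 of their promoters, or 33.3%. It was held by 6.02% of all promoters and, counted in the same way by gene, by 6.86% of all genes in the table.

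Immediate early genes, which are induced fast by many stimuli, were highest in mouse 1. Of the 17 genes at 1 TPM or more, 13 were highest there, and the 19 genes summed to 496, 265, 239, 325 and 284 TPM. Nr4a1, an orphan nuclear receptor, was at 150.5, 49.3, 24.6, 80.5 and 67.6 TPM. Fos, a part of the AP-1 factor, was at 17.6, 5.08, 6.36, 13.2 and 5.40 TPM, with mouse 4 next to mouse 1, and Nr4a2 at 9.87 TPM in mouse 1 and 0.689 to 1.40 TPM in the others. Ier3 was an exception, highest in mouse 5 at 52.3 TPM.

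Targets of fasting and glucocorticoids did not form a single order. Of 17 members, 7 were highest in mouse 1 and 8 in mouse 5, whereas 7 each were lowest in mice 3 and 4. Zbtb16, a zinc finger factor induced by glucocorticoids, was at 20.7, 20.8, 23.9, 18.1 and 43.5 TPM, and Fkbp5, a chaperone of the glucocorticoid receptor, at 11.0, 15.0, 13.9, 7.13 and 22.7 TPM. Both were highest in mouse 5. Ddit4, an inhibitor of mTOR signaling, was at 37.3, 31.1, 16.4, 7.05 and 31.7 TPM, lowest in mouse 4. The muscle ubiquitin ligases Trim63 and Fbxo32, which mark proteins for breakdown, were at 99.1 ± 18.1 and 83.4 ± 10.6 TPM.

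Secreted factors of muscle were led by genes of matrix and vessel growth. Sparc, a matrix protein, was at 251 ± 27.9 TPM, Vegfb and Vegfa, vascular growth factors, at 188 ± 9.81 and 159 ± 13.4 TPM, and Fndc5, the precursor of irisin, at 122 ± 7.90 TPM. Mstn, myostatin, which limits muscle growth, was at 29.0, 21.5, 19.6, 20.8 and 18.1 TPM. Il6, the cytokine interleukin 6, and Fgf21, a stress hormone, averaged 0.0439 and 0.0261 TPM. Fibcd1, the gene the series is about, was listed at 0 in mice 1, 2 and 5 and at 0.0352 and 0.00842 TPM in mice 3 and 4, which stood for 4 reads and 1 read. No gene of this list at 10 TPM or more differed by 2-fold.

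Noncoding RNA and genes often used as references completed the picture. H19, an imprinted noncoding RNA, ranked 39th among nuclear genes at 1309.9 ± 136 TPM, and Neat1, the scaffold of paraspeckles, was at 725 ± 126 TPM. The 17 reference genes varied little in sum, with a CV of 2.77%, but not equally as single genes. Gapdh, a glycolytic enzyme, varied by 6.19% (CV), while Actb, cytoplasmic actin, was at 252, 254, 182, 221 and 162 TPM and Ppia, cyclophilin A, at 96.3, 109, 75.9, 76.4 and 72.1 TPM. Mice 1 and 2 were the highest for both. Tfrc, the transferrin receptor, was the only reference gene at 10 TPM or more to differ by 2-fold, from 11.1 TPM in mouse 2 to 26.6 TPM in mouse 3.

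Across the 5499 genes with a mean of at least 10 TPM, most varied little from mouse to mouse. The median SD of log2(TPM + 1) was 0.0915, and the middle 50% of genes lay between 0.0594 and 0.146. The median CV was 6.60%. Only 261 genes, 4.75%, differed by at least 2-fold between the highest and the lowest mouse after adding 1 TPM. All 40 immunoglobulin genes at this level were among them, as were 9 of 10 white adipocyte, all 5 red cell and all 6 liver genes. By contrast, 0 of 28 pan-sarcomere, 0 of 29 respiratory chain and 0 of 21 citrate cycle genes were. Some genes reached the minimum of 10 TPM through 1 mouse, so a wide range was set for them by that minimum. Igkv9-124, for one, was at 82.7 TPM in mouse 4 and 1.13 TPM at most elsewhere.

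The 261 genes were not spread evenly over the mice. Mouse 2 was highest in 97 of them (37.2%) and mouse 1 in 84 (32.2%), compared with 32.2% and 13.6% of all 5499 genes. Mouse 5 was lowest in 115 (44.1%), against 22.3% of all genes. Mice 1 and 2 were the highest pair in 102 (39.1%), against 22.2%. In a principal component analysis of the 5499 genes, the first component took 52.3% of the variance and separated mouse 2 (score 22.3) and mouse 1 (11.2) from mouse 5 (-22.2), with mice 3 and 4 between. The second, with 29.1%, set mouse 4 (18.1) and mouse 3 (7.45) apart from mouse 5 (-13.4) and mouse 1 (-9.42).

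The genes at the ends of the range were of different kinds. Of the 20 with the largest SD, those outside the immunoglobulin loci were Jchain, Ucp1, Alb, Apoa2 and the major urinary protein genes Mup7, Mup14 and Mup19. Igkv4-55 had the largest SD, 3.98, and lies in the kappa locus at chr6:69607275-69607828 (GRCm38). The smallest belonged to Aggf1, an angiogenic factor, with 14.8, 14.7, 14.7, 14.7 and 14.7 TPM and an SD of 0.00301 on the log2 scale. Usmg5 and Atp5l, small subunits of ATP synthase, were among the 20 steadiest genes although highly expressed, at 1335 ± 8.28 and 1732 ± 14.4 TPM. Kars, the lysine tRNA ligase, Eif2s3x, a translation initiation factor, and Psmc5, a proteasome ATPase, were also in this set.

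**Figure D5:**
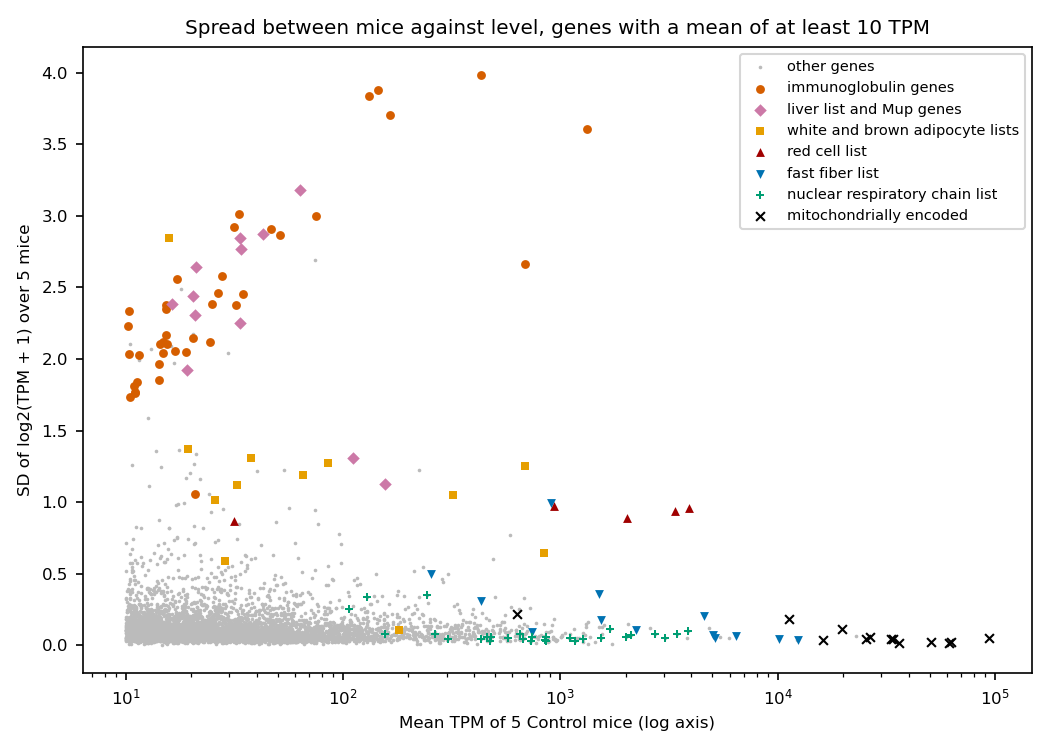
SD of log2(TPM + 1) over the 5 Control mice (vertical axis) against mean TPM (horizontal axis, log scale) for the 5499 genes with a mean of at least 10 TPM, 1 point per gene. Immunoglobulin genes reach an SD of 3.98, far above the median of 0.0915, near which most genes lie.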

How the data were processed

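The series measured polyadenylated RNA of mouse diaphragm muscle. Per the labels and the study's methods, the authors trimmed and filtered the reads, mapped them to the mouse genome GRCm38 in CLC Genomics Workbench and deposited 1 table of TPM per gene symbol and sample. The annotation release is not given in the sources used here. The labels and the methods name different library kits and sequencers, so whether strand was counted is not known, and values of overlapping or antisense genes are uncertain. Of the table, the 5 Control columns were used, and 0 columns were without a sample.

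Means, SDs, CVs and ranks over the 5 mice were computed with Python 3.11.15, numpy 2.4.6 and pandas 2.3.3, and plots with matplotlib 3.10.9. No groups were compared. Single mice far from the other 4 were sought with Dixon's ratio. The labels call the samples biological replicates. The spread between mice was the SD of log2(TPM + 1) for genes with a mean of at least 10 TPM. The calculation was tested on simulated data. Read numbers were recovered from the spacing of low values with the gene's exon length (81.8% to 84.0% of low values were whole within 0.02 reads, against 4% by chance), and cover counting error only. Gene types and lengths came from GENCODE, matched by symbol for 45134 symbols (94.7%).

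Genes named in the text are members of the gene lists, named by role with the highest and lowest among them, the mitochondrially encoded genes, the myosin heavy chains, the 40 nuclear genes with the highest means, and the 20 with the largest and the 20 with the smallest spread, each with a mean of at least 10 TPM. The members and lists were chosen with earlier results of these data known. The lists of inducible heat shock, lipogenesis, MHC class II and major urinary protein genes were added after their values were seen, as was the pair of genes with the same coding sequence, and support nothing. Alternatives were other minimums and pseudocounts, TPM rescaled without mitochondrially encoded genes, median-ratio scaling and leaving out each mouse.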

Additional observations from a re-analysis of the deposited data

Results flagged for a closer look

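Single mice that stood far from the other 4, by a gap above the 95% critical value of Dixon's ratio (0.71 for 5 values), were found in 32 of 233 values: 4 of 42 list sums and 28 of 191 named genes. Chance alone marks about 1 in 20 such groups. The count is a description and is not to be read against that rate, since several genes and the major urinary protein list were named for their spread, and genes of a list are not independent. Mouse 2 was the distant mouse in 12, mouse 4 in 8, mouse 1 in 6 and mice 3 and 5 in 3 each.

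Mouse 2 stood high in the summed TPM of mesothelium (207), B cells (2105) and plasma cells (4619). Among the genes it stood high for Ighm (1976 TPM), Igkc (4283 TPM), Igkv4-55 (1804 TPM), Jchain (237 TPM), Upk3b (66.2 TPM), Ucp1 (62.3 TPM), Ankrd1 (9.59 TPM) and Chrng (0.171 TPM, 18 reads), and low for Atp2a1 (5943 TPM). Mouse 4 stood high in the summed TPM of major urinary proteins (813). It was also high for Alb (171 TPM), Apoa2 (147 TPM), Mup7 (232 TPM), Mup14 (79.1 TPM), Mup19 (149.7 TPM), Igkv9-124 (82.7 TPM) and Acaa2 (719 TPM).

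Mouse 1 stood high for Krt8 (15.6 TPM), Krt18 (12.9 TPM), Cnn1 (6.49 TPM) and Nr4a2 (9.87 TPM), and low for Psmc5 (122 TPM against 124 to 125 TPM). Mouse 3 stood high for Igkv4-59 (316 TPM) and low for Tcap (5589.8 TPM). Mouse 5 stood high for Ppara (41.4 TPM) and Zbtb16 (43.5 TPM) and low for Myl3 (287 TPM). Ly6g met the criterion through 1 read in mouse 1 (0.0422 TPM), which is under the floor of 3 reads and cannot be told from 0, and Fibcd1 through 4 reads in mouse 3 (0.0352 TPM) against 1 read at most elsewhere.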

How the results depend on the processing

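No paired analysis was possible because no groups were compared. Leaving out mouse 2 moved 4 list means by over 1.5 times: plasma cells from 1444 to 650.4 TPM, B cells from 747 to 408 TPM, brown adipocytes from 44.3 to 24.3 TPM and lymphoid organizers from 40.1 to 23.3 TPM. Among the 39 fixed lists, the shares and the counts, leaving out any other mouse moved no value by as much. Of the lists chosen after seeing the data, without mouse 4 the major urinary protein mean fell from 212 to 61.8 TPM, and the liver mean without Cyp2e1 and Hp from 128.6 to 29.9 TPM, and without mouse 2 the plasma cell mean without Igkc fell from 119.7 to 65.7 TPM. Median-ratio scaling between mice kept 39 of 39 list sums within 1 SD. Rescaling to 1000000 TPM without mitochondrially encoded genes raised every list's level by construction, by 1.85 to 1.94 times, and moved 34 lists. The share of the 10 most abundant genes then was 17.1%. The list sums in TPM then were 113289 for pan-sarcomere, 97206 for fast fiber, 5388 for slow fiber, 597 for cardiac and developmental sarcomere, 6707 for calcium handling and 1803 for membrane genes. For metabolism they were 26560.4 for glycolysis, 23236 for fatty acid use, 20385 for the citrate cycle and 62349.7 for the nuclear respiratory chain. For resident cells they were 1728 for endothelium, 579.9 for lymphatic endothelium, 915 for smooth muscle and pericytes, 3913 for fibroblasts, 253 for tendon, 263 for mesothelium, 72.1 for satellite cells, 217 for Schwann cells, 221 for the neuromuscular junction and 4331 for white adipocytes. For blood and immune cells they were 1001 for macrophages, 22.0 for T cells, 20.2 for neutrophils, 81.9 for mast cells and 19214.5 for red cells, and for liver 749. For the other lists they were 15.7 for proliferation, 608 for immediate early, 1116 for clock, 2195 for fasting and glucocorticoid targets, 1782 for secreted factors, 1687 for regulators, 4078 for noncoding RNA and 12922 for reference genes.

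With members left out, a choice made after seeing the data, the mean liver sum was 128.6 TPM without Cyp2e1 and Hp (396 TPM with them) and the lymphatic sum 88.1 TPM without Ccl21a (306 TPM with it). The B cell sum was 50.7 TPM without Ighm and Ighd (747 TPM with them), and the white adipocyte sum 964 TPM without Fabp4, Plin4 and Scd1 (2309 TPM with them). The plasma cell sum was 119.7 TPM without Igkc (1444 TPM with it). The count of genes with a 2-fold range was 822 with a minimum mean of 1 TPM and 1093 with no minimum, by construction of the larger sets. The mouse with the highest or the lowest sum changed with the scaling for the pan-sarcomere, cardiac and developmental, endothelium, smooth muscle, neuromuscular junction, clock and reference lists. The 5 mice limit the precision of every SD, and values under the floor of 3 reads cannot be told from 0.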

Other observations

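The gene groups described here were chosen after their values were seen. Inducible heat shock genes were high in mice 1 and 5, with sums of 257, 121, 113, 83.5 and 276 TPM in mice 1 to 5. Hspa1a, an inducible chaperone, was at 41.5, 11.7, 9.83, 6.39 and 40.3 TPM, and Hsp90aa1, the inducible cytosolic chaperone of the HSP90 family, at 79.3, 48.0, 50.7, 33.1 and 98.0 TPM. Hspa1b was at 43.3, 9.66, 8.21, 4.71 and 39.7 TPM, but it is a close relative of Hspa1a and the assignment of reads between them was not tested.

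Genes of fatty acid synthesis had sums of 308, 265, 90.6, 185 and 106 TPM. Fasn, fatty acid synthase, was at 93.0, 79.9, 20.6, 62.3 and 26.2 TPM. Mice 1 and 2 were highest and mice 3 and 5 lowest for it, as for the white adipocyte sum. MHC class II genes, which present antigen, summed to 655, 854, 444, 553 and 386 TPM. Cd74, their invariant chain, was at 329, 420.5, 218, 269 and 187 TPM, and all 4 members were highest in mouse 2 and lowest in mouse 5.

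Major urinary protein genes, made in liver, summed to 10.4, 7.72, 174, 813 and 55 TPM, with all 7 members highest in mouse 4. They are near-identical copies, so their single values are uncertain. Genes of the Hox clusters, which keep the position of a tissue along the body, were led by Hoxc6 at 12.2 ± 0.812 TPM and Hoxa5 at 12.2 ± 0.109 TPM (SD, n = 5). Hoxa5 varied by 0.895% (CV). Lower members with a mean of at least 1 TPM varied more, up to 28.7% for Hoxb6, which averaged 1.07 TPM.

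A predicted gene stood above the gene whose coding sequence it shares. Gm10053 was at 1020.1 ± 46.5 TPM and Cycs, cytochrome c, at 156 ± 8.31 TPM (SD, n = 5), with 100% identity over 318 coding bases. The values of both are uncertain for that reason.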
